A study of Homo sapiens with 21 samples.

Results

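The genes described here are the cyclins, cyclin-dependent kinases (CDKs), CDK inhibitors and CDK-activating phosphatase that act at the passage from G1 into S phase: CCND3, CCNE1, CCNE2, CDK2, CDK4, CDK6, CDKN1B, CDKN2C, CDKN2D and CDC25A. They were taken by symbol from the deposited expression table, where 10 of 10 were found among 17691 genes. The rule sets no threshold on a measured value. RNA came from MM.1S, a human line of multiple myeloma, a plasma cell cancer, set up from peripheral blood and labelled wild type unless a hairpin is named. The 21 libraries fall into 7 groups of 3: untreated cells, cells given pomalidomide at 1 µM for 24, 48 or 72 h, a control knockdown, and cells transduced with lentivirus carrying a hairpin (shRNA) against ARID2 or against Aiolos for 72 h. Pomalidomide redirects the cereblon ubiquitin ligase to Aiolos (the IKZF3 protein) and Ikaros, and ARID2 is a subunit of the PBAF chromatin remodeller. For the control knockdown, neither the hairpin used nor its duration is given in the sources used here. All groups are of 1 cell line, and no untreated cells were labelled for each drug time, so time in drug and time in culture cannot be told apart.

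In G1, D-type cyclins switch on CDK4 and CDK6, which phosphorylate the retinoblastoma protein RB1 and so release E2F transcription factors. E2F factors then drive cyclin E, which switches on CDK2, and the genes of DNA replication. INK4 inhibitors, among them p18 (CDKN2C) and p19 (CDKN2D), bind CDK4 and CDK6, p27 (CDKN1B) binds cyclin-CDK complexes and holds back CDK2, and the phosphatase CDC25A removes inhibitory phosphates from CDK2. Myelomas usually overexpress a D-type cyclin, and p18 is a known target of deletion in this disease.

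Levels are given in TPM (a share of all transcripts corrected for gene length, so that genes can be compared within a library). Changes are differences of log2(TPM + 1) with their standard error, from 1 limma fit to all 12559 genes that reached 1 TPM in at least 3 libraries, and passing means an adjusted p below 0.05. Of the 10 genes 9 were tested, and CDKN2C did not reach that level. The deposited TPM keep no record of depth, so counting error is unknown. Libraries of a group correlated at 0.993 to 0.996 across genes. The 7 plasma cell and myeloma markers were all at or above 1 TPM in every group. Of the B cell markers only CR2 was above 1 TPM, and the markers of T and NK, myeloid, epithelial and stromal cells, summed for each list, stayed at or below 5.75 TPM. ARID2 fell by 1.01 ± 0.07 in its knockdown, whereas IKZF3 was 0.67 ± 0.05 higher in the libraries labelled Aiolos knockdown, so they are named here by that label. IKZF3 was lowest in the control knockdown, at 81.3 TPM, against 96.4 TPM in untreated cells. It had 129.9 TPM in the libraries labelled Aiolos knockdown, 119.5 TPM in the ARID2 knockdown, and 115, 123 and 112 TPM at the 3 drug times. The median change of all genes at 72 h was 0.15, and 0.0062 with median-of-ratios scaling, so changes of these genes at 72 h are also given relative to that median, while other genes at 72 h are given as fitted. Mitochondrial mRNA held 15.5% of the listed TPM in untreated cells, and 17.0%, 16.7% and 13.7% at the 3 drug times. It held 17.2% in the control knockdown, 18.5% in the ARID2 knockdown and 15.7% for the libraries labelled Aiolos knockdown, and its part in the changes was not tested.

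With pomalidomide, the transcripts of CDK2, CDK4, CDK6, both E-type cyclins, CCND3 and CDC25A fell, and the p27 transcript rose. At 24 h 7 of the 9 tested genes were lower and 2 higher. The background over all genes tested was 31.0% lower and 35.1% higher. At 48 h 8 were lower and 1 higher, against 34.8% and 43.8%. At 72 h 8 were lower and 1 higher, against 31.6% and 48.1%. With median-of-ratios scaling 49.9% of the genes called at 72 h were higher, against 60.4% in the fit reported. The median change of the 9 was -0.54, -1.27 and -0.95 at the 3 times (-1.11 at 72 h relative to all genes), where the median of all genes was 0.03, 0.08 and 0.15. In RNA from bulk cultures, fewer cells at a stage of the cycle and less RNA per cell cannot be told apart. At 48 and 72 h markers of cycling cells moved with these genes. All 19 genes of a list of S phase entry genes were lower, and all 8 of G2 and mitotic CDK control. At 24 h 17 of the 19 were lower, whereas of the 8 genes 4 were higher and 3 lower. Their part in the changes of the G1 genes was not tested.

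**Figure D1:**
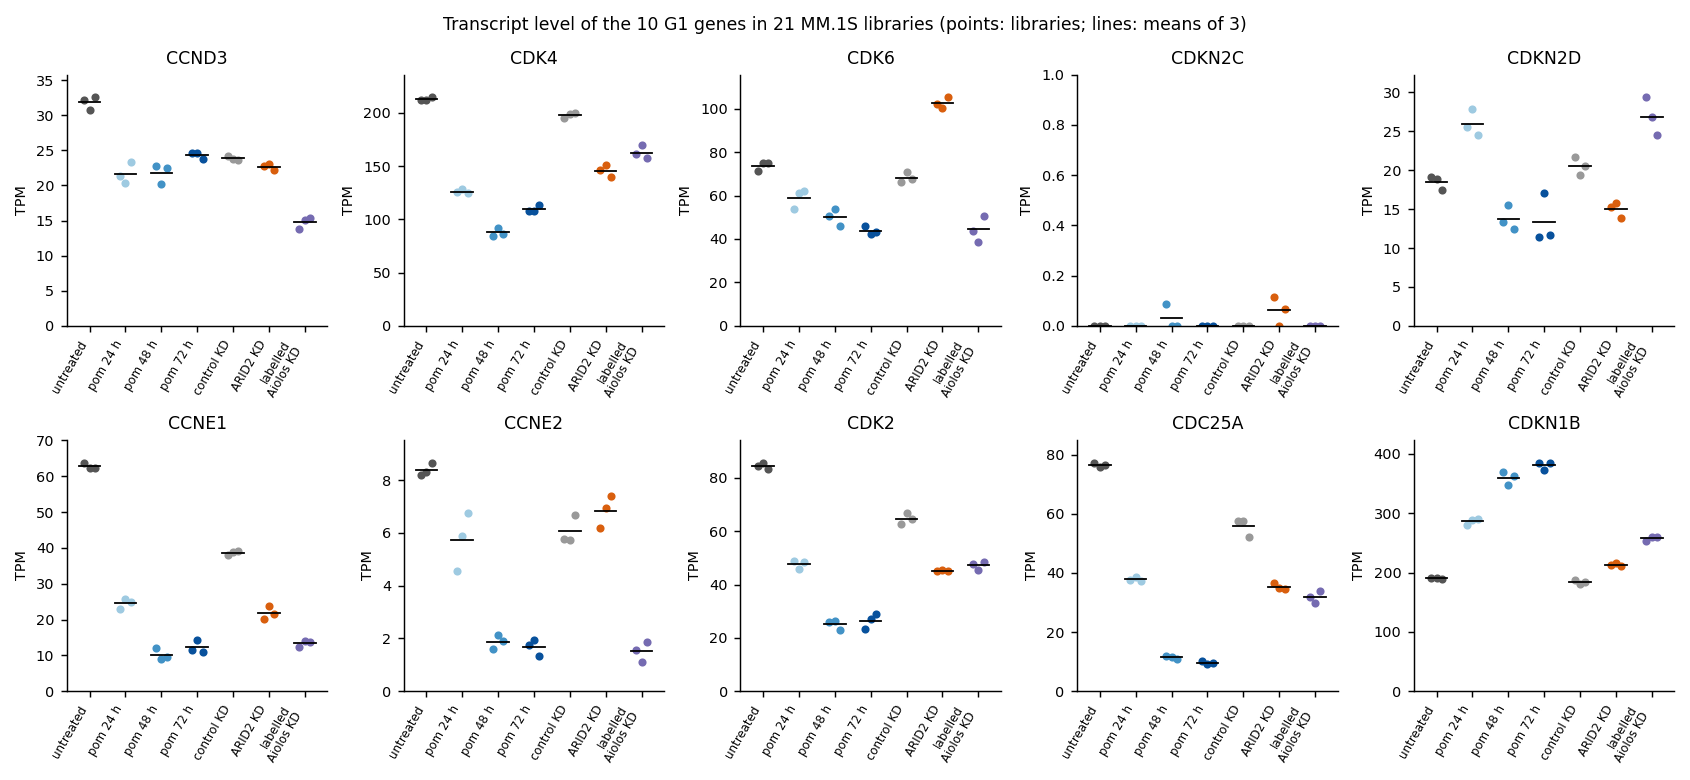
TPM of each of the 10 genes (linear axes from 0) in the 21 libraries, by group; points are libraries and lines are means of 3. CDC25A falls from 76.5 TPM without drug to 9.65 at 72 h, CDKN1B rises from 190.5 to 381, CDK6 is highest in the ARID2 knockdown at 103, and CDKN2C is at or near 0 in every library.

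On the D-type cyclin side, CCND3 (cyclin D3; GRCh38 chromosome 6, 41934933 to 42050357, minus strand) had 32.1, 30.8 and 32.5 TPM in the untreated libraries. It had 21.3, 20.4 and 23.3 TPM at 24 h, 22.7, 20.2 and 22.5 TPM at 48 h, and 24.6, 24.6 and 23.8 TPM at 72 h. Every drug library lay below every untreated one, and the ranges at 24 and 48 h overlapped. CCND3 changed by -0.54 ± 0.05 at 24 h, -0.53 ± 0.05 at 48 h and -0.37 ± 0.05 at 72 h (adjusted p = 2.98e-06; -0.53 relative to all genes). It was the one gene of the 9 that did not pass between 24 and 48 h (0.01, 95% interval -0.10 to 0.12, and -0.01 with median-of-ratios scaling).

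CDK4 (chromosome 12, 57747727 to 57756013, minus strand) was the most abundant kinase of the 3. It had 213, 212 and 215 TPM in untreated cells, 125, 128 and 125 TPM at 24 h, and 84.7, 92.3 and 86.7 TPM at 48 h. At 72 h its libraries were back above those of 48 h, at 108, 107 and 113 TPM, and no 2 groups of the 7 overlapped. Its changes were -0.75 ± 0.04, -1.27 ± 0.04 and -0.95 ± 0.04, the last -1.11 relative to all genes. Exons of TSPAN31 on the opposite strand cover 43.2% of the exonic bases of CDK4, and the library kit does not mark strand. TSPAN31 itself rose from 15.2 ± 1.39 to 52.1 ± 1.63 TPM at 72 h (SD, n = 3), the direction opposite to CDK4, and the division of reads over the shared bases is not stated.

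The 250 bases before the RefSeq start of CDK4 (GRCh38.p14, chr12:57752311-57752560, minus strand) are shown because they hold the E-box CACGTG, the word that MYC and its relatives bind, 3 times, at positions -216, -196 and -101 from the start. Capitals mark the word.
CDK4: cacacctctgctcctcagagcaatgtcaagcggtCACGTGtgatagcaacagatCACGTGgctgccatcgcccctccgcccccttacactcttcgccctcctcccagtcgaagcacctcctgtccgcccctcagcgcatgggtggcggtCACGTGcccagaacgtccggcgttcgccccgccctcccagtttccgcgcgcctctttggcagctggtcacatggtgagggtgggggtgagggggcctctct
In windows from 250 bases before to 50 after a start, searched on both strands, the word stood in 4 of 13 windows of the 8 genes that have an entry, belonging to CDK4, CDK6 and CDKN2C. It stood in 7.3% of 35116 RefSeq windows. A match is a description of letters, and binding was not measured.

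CDK6 (chromosome 7, 92604921 to 92836594, minus strand), the other partner of D-type cyclins, had 71.3, 74.9 and 75.0 TPM in untreated cells. It had 53.7, 61.2 and 62.1 TPM at 24 h, 50.5, 53.8 and 46.0 TPM at 48 h, and 46.0, 42.2 and 43.4 TPM at 72 h. The drug groups lay wholly below untreated cells and overlapped their neighbours in time. Its fall was smaller than that of CDK4 at 24 and 48 h, at -0.32 ± 0.07 (adjusted p = 0.000862) and -0.55 ± 0.07, and reached -0.74 ± 0.07 at 72 h (-0.89 relative to all genes). The difference between the genes was not tested.

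The INK4 inhibitors differed from each other. CDKN2C (chromosome 1, 50960745 to 50974633, plus strand) was listed at 0 in 18 of 21 libraries and at no more than 0.116 TPM in the other 3, which were 1 of 48 h and 2 of the ARID2 knockdown. It had no test. CDKN2D (chromosome 19, 10566462 to 10569059, minus strand) was expressed, with 19.1, 18.9 and 17.4 TPM in untreated cells and 25.5, 27.8 and 24.5 TPM at 24 h. It then had 13.3, 15.5 and 12.4 TPM at 48 h and 11.4, 17.0 and 11.6 TPM at 72 h. All libraries of 24 h lay above untreated cells and all of 48 and 72 h below them. CDKN2D thus rose by 0.47 ± 0.11 at 24 h (adjusted p = 0.00106) and was lower by 48 h (-0.40 ± 0.11, adjusted p = 0.00277) and 72 h (-0.46 ± 0.11, adjusted p = 0.000852; -0.62 relative to all genes). Between 24 and 48 h it fell by 0.87 ± 0.11. It was the one gene of the 9 whose change from untreated cells had opposite signs at different times.

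Among the genes of the CDK2 step, CCNE1 (cyclin E1; chromosome 19, 29811898 to 29824308, plus strand) had 63.8, 62.4 and 62.4 TPM in untreated cells. It fell to 22.9, 25.8 and 25.0 TPM at 24 h and 12.1, 9.04 and 9.45 TPM at 48 h, and had 11.6, 14.4 and 10.9 TPM at 72 h. The libraries of 48 and 72 h overlapped each other and lay below those of 24 h. The changes from untreated cells were -1.32 ± 0.09, -2.52 ± 0.09 and -2.28 ± 0.09 (-2.43 relative to all genes).

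CCNE2 (cyclin E2; chromosome 8, 94879770 to 94896678, minus strand) was the scarcer E-type cyclin, with 8.19, 8.29 and 8.66 TPM in untreated cells. It had 4.55, 5.87 and 6.77 TPM at 24 h, 1.59, 2.12 and 1.92 TPM at 48 h, and 1.77, 1.94 and 1.35 TPM at 72 h. Most of its fall came between 24 and 48 h: 27.1% of its change at 72 h was present at 24 h and 94.4% at 48 h, against 58.1% and 110.8% for CCNE1. The changes were -0.49 ± 0.13 (adjusted p = 0.002), -1.71 ± 0.13 and -1.81 ± 0.13 (-1.97 relative to all genes), on a scale where the added 1 TPM understates changes of scarce transcripts. INTS8 on the opposite strand shares 37.0% of the exonic bases of CCNE2. INTS8 was more abundant than CCNE2, with 22.0 TPM in untreated cells and 16.5, 16.4 and 15.8 TPM at the 3 times (-0.39, -0.40 and -0.45). Whether its reads entered the CCNE2 value in the drug series was not tested.

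CDK2 (chromosome 12, 55966769 to 55972784, plus strand), the kinase that cyclin E activates, had 84.7, 85.7 and 83.5 TPM in untreated cells and 48.9, 45.9 and 48.3 TPM at 24 h. At 48 h it had 25.8, 26.3 and 23.0 TPM and at 72 h 23.2, 27.004 and 29.1 TPM. The times separated down to 48 h, and 48 and 72 h overlapped. Its changes were -0.81 ± 0.06, -1.72 ± 0.06 and -1.65 ± 0.06 (-1.80 relative to all genes). On the opposite strand, the antisense gene AC025162.1, which is not listed, shares 14.5% of the exonic bases of CDK2. PMEL shares 2.3%, and went from 0.77 TPM in untreated cells to 8.27 TPM at 24 h and 5.93 TPM at 72 h. Whether their reads entered the CDK2 value was not tested.

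CDC25A (chromosome 3, 48157146 to 48188402, minus strand), which removes inhibitory phosphates from CDK2, changed the most of the 9 genes at 48 and 72 h. It had 77.3, 75.7 and 76.5 TPM in untreated cells, 37.7, 38.6 and 37.2 TPM at 24 h, 11.8, 11.5 and 10.9 TPM at 48 h, and 10.3, 9.20 and 9.41 TPM at 72 h. No 2 of these groups overlapped, and each later group was lower. The changes were -0.997 ± 0.05, -2.64 ± 0.05 and -2.86 ± 0.05 (adjusted p = 2.57e-20; -3.02 relative to all genes). The 250 bases before its RefSeq start (GRCh38.p14, chr3:48188418-48188667, minus strand) are shown because they hold the 1 E2F word found among these genes, TTTGGCGC at position -44, in capitals.
CDC25A: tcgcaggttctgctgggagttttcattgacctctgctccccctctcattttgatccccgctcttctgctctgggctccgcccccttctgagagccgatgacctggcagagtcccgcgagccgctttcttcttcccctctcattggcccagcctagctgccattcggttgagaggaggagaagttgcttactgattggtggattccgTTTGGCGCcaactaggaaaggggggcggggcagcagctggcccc
Of the 4 words searched on both strands (TTTCCCGC, TTTCGCGC, TTTGCCGC and TTTGGCGC), at least 1 stood in 3.3% of the 35116 windows and in 9 of 23 windows of the S phase entry genes. The word TTTGAA, known from promoters of some cell cycle genes, stood in none of the 13 windows. It stood in 1 of 23 windows of the S phase entry genes and in 15.2% of all. The CDK2 and CCNE2 windows were not analysed here.

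CDKN1B (p27; chromosome 12, 12715058 to 12722371, plus strand) was the gene that rose at every drug time. It had 191, 191 and 189.6 TPM in untreated cells and 280.0, 289 and 289.9 TPM at 24 h. It had 369, 347 and 362 TPM at 48 h and 385, 373 and 384 TPM at 72 h. No 2 of these groups overlapped, and each later group was higher. The rises were 0.58 ± 0.03, 0.91 ± 0.03 and 0.995 ± 0.03 (adjusted p = 8.80e-18; 0.84 relative to all genes), the last 1.99-fold. From 24 to 48 h it rose by a further 0.33 ± 0.03.

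**Figure D2:**
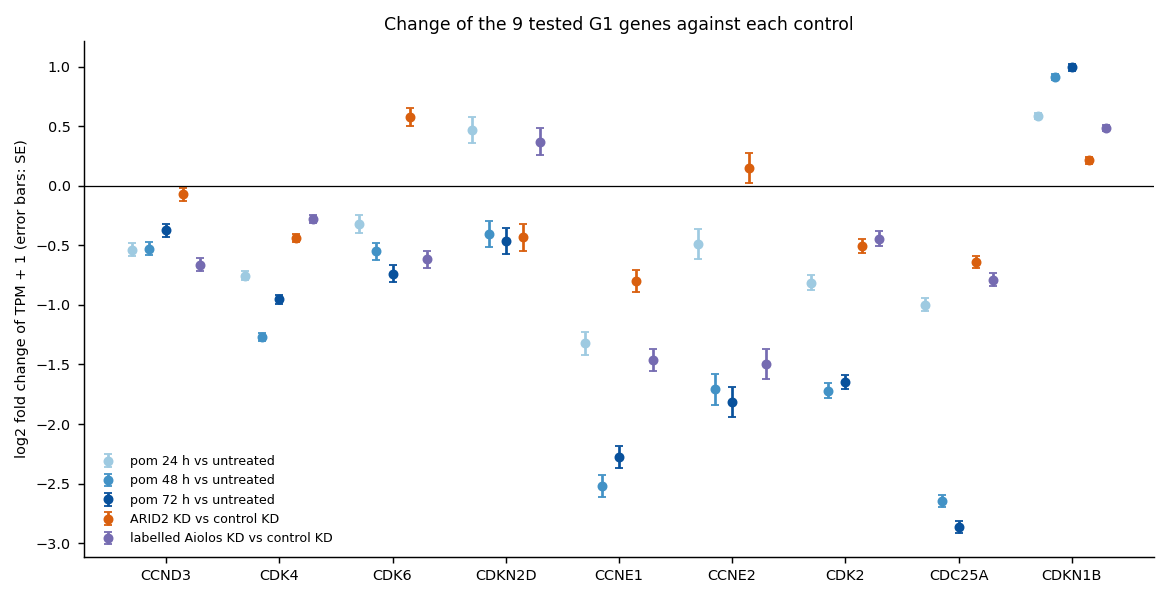
Log2 fold change of TPM + 1 of the 9 tested genes (vertical axis) at each drug time against untreated cells and in each knockdown against the control knockdown; points are estimates and bars are SE. CDC25A reaches -2.86 at 72 h, CDKN1B is above 0 in all 5 comparisons, and CDK6 is at 0.58 in the ARID2 knockdown and below 0 in the other 4.

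Most of the change in the drug series lay before 48 h: the share of the change at 72 h already present at 48 h ran from 74.7% for CDK6 to 141.1% for CCND3. Between 24 and 48 h 7 of the 9 genes were lower, 1 was higher and 1 did not pass, against 26.1% lower and 32.1% higher over all genes. The falls ran from CDC25A (-1.65 ± 0.05), CCNE2 (-1.22 ± 0.13) and CCNE1 (-1.20 ± 0.09) to CDK6 (-0.23 ± 0.07, adjusted p = 0.0116). The call of CDK6 was lost without the third library of 24 h (adjusted p = 0.0558) or of 48 h (adjusted p = 0.0745). Between 48 and 72 h 4 were higher, 2 lower and 3 did not pass, against 31.6% and 16.5%. CDK4 rose by 0.32 ± 0.04 (adjusted p = 7.87e-07) and CDC25A fell by 0.22 ± 0.05 (adjusted p = 0.00194), and both passed in every alternative fit. The small rises of CCNE1 (0.25 ± 0.09), CCND3 (0.15 ± 0.05) and CDKN1B (0.08 ± 0.03) did not pass with median-of-ratios scaling, where that of CDKN1B was at -0.0026. With that scaling 46.1% of all genes called were higher, against 65.7% in the fit reported. CDK6 was lower by 0.19 ± 0.07 (adjusted p = 0.0454) and was not called without a filter on low values (adjusted p = 0.0725).

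In the ARID2 knockdown, compared with the control knockdown, CCNE1, CDC25A, CDK2, CDK4 and CDKN2D fell, while CDK6 and CDKN1B rose. That is 5 of 9 lower, 2 higher and 2 not passed, against 29.2% lower and 33.1% higher over all genes. The median change of the 9 was -0.43, against 0.02 for all genes. CDK6 had 66.2, 70.9 and 67.6 TPM in the control and 102.0, 100.5 and 105 TPM in the ARID2 knockdown, the highest 3 values of the 21 libraries. Its rise was 0.58 ± 0.07 (adjusted p = 1.10e-06), 1.496-fold, and between 0.55 and 0.63 in every alternative fit. CDK4, which shares its cyclins, went the other way. It had 195, 199 and 199.96 TPM in the control and 146, 151 and 140.0 TPM in the knockdown (-0.44 ± 0.04, adjusted p = 2.18e-09).

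Of the CDK2 step in the ARID2 knockdown, CCNE1 went from 37.9, 38.9 and 39.1 TPM to 20.1, 23.9 and 21.5 TPM, with no overlap (-0.80 ± 0.09, adjusted p = 3.60e-07). CCNE2 did not follow: it had 5.78, 5.72 and 6.67 TPM in the control and 6.19, 6.93 and 7.39 TPM in the knockdown, which overlap. Its change was 0.15 ± 0.13 (adjusted p = 0.313), with a 95% interval from -0.11 to 0.42. INTS8, which overlaps CCNE2, rose by 0.39 in these libraries, and whether its reads entered the CCNE2 value was not tested. CDC25A went from 57.5, 57.7 and 52.1 to 36.7, 34.7 and 34.7 TPM (-0.64 ± 0.05). CDK2 went from 62.6, 66.7 and 64.5 to 45.1, 45.4 and 45.2 TPM (-0.50 ± 0.06). Both lay wholly below the control. CDKN1B had 187, 180.3 and 184 TPM in the control and 213, 216 and 211 TPM in the knockdown, a rise of 0.21 ± 0.03 (adjusted p = 7.79e-07). CDKN2D had 21.7, 19.4 and 20.5 TPM in the control and 15.3, 15.8 and 13.8 TPM in the knockdown (-0.43 ± 0.11, adjusted p = 0.00228). CCND3, at 24.2, 23.7 and 23.6 TPM against 22.8, 23.0 and 22.2 TPM, did not pass (-0.07 ± 0.05, 95% interval -0.19 to 0.04), although its libraries did not overlap.

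In the libraries labelled Aiolos knockdown 7 of the 9 genes were lower and 2 higher than in the control knockdown, against 30.7% lower and 37.2% higher over all genes. The median change was -0.62, against 0.05 for all genes. CCNE2 had 1.55, 1.12 and 1.86 TPM (-1.499 ± 0.13) and CCNE1 12.5, 14.1 and 13.7 TPM (-1.46 ± 0.09), the 2 largest falls. CDC25A had 31.9, 29.9 and 33.9 TPM (-0.79 ± 0.05). CCND3 was lower here than in any other group, at 13.8, 15.01 and 15.4 TPM (-0.66 ± 0.05, adjusted p = 1.44e-09). CDK6 had 43.6, 38.8 and 50.7 TPM (-0.62 ± 0.07) and CDK2 47.7, 45.3 and 48.6 TPM (-0.44 ± 0.06). CDK4 fell least, to 161, 169.5 and 158 TPM (-0.28 ± 0.04). The inhibitors were the 2 that rose: CDKN1B to 253, 259 and 260.4 TPM (0.48 ± 0.03) and CDKN2D to 29.3, 26.8 and 24.5 TPM (0.37 ± 0.11, adjusted p = 0.00616).

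The control knockdown was not at the level of untreated cells. Of the 9 genes 6 were lower, 0 higher and 3 did not pass, against 28.4% lower and 17.3% higher over all genes. CCNE1 was lower by 0.69 ± 0.09, CDC25A by 0.45 ± 0.05, CCNE2 by 0.41 ± 0.13 (adjusted p = 0.0113), CCND3 by 0.40 ± 0.05 and CDK2 by 0.38 ± 0.06 on the log2 scale. CDK4 differed by -0.11 ± 0.04 (adjusted p = 0.0197) and did not pass under median-of-ratios scaling (adjusted p = 0.126). CDK6 (-0.11 ± 0.07), CDKN1B (-0.05 ± 0.03, and 0.0094 with quantile normalization) and CDKN2D (0.14 ± 0.11) did not pass. Each knockdown is therefore set against the control knockdown and each drug group against untreated cells.

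For most of these genes the drug effect at 72 h differed from that in each labelled knockdown. The test is of the signed difference between the 2 effects, so effects of opposite sign can pass as well as effects of unequal size. Against the ARID2 knockdown effect, 7 of 9 were lower under the drug, 1 was higher and 1 did not pass, against 29.1% and 40.4% over all genes. The difference was -2.22 ± 0.07 for CDC25A, -1.96 ± 0.18 for CCNE2, -1.48 ± 0.13 for CCNE1 and -1.32 ± 0.11 for CDK6, which fell with the drug and rose with the hairpin. CDKN2D, which fell in both, did not pass (-0.03 ± 0.16, 95% interval -0.36 to 0.30). Against the effect in the libraries labelled Aiolos knockdown, 5 were lower under the drug, 2 higher and 2 did not pass, against 28.0% and 35.0%. CDC25A (-2.08 ± 0.07) and CDK2 (-1.20 ± 0.09) differed the most. CCND3 differed by 0.29 ± 0.08, since it fell less with the drug, and CDKN2D by -0.83 ± 0.16, since its signs were opposite. CCNE2 (-0.31 ± 0.18, 95% interval -0.69 to 0.06) and CDK6 (-0.12 ± 0.11, 95% interval -0.34 to 0.10) did not pass.

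Ratios of TPM within a library show how partners moved apart, as a description without a test. The ratio of the p27 transcript to that of CDK2 was 2.25 ± 0.021 in untreated cells (SD over 3 libraries). It rose to 6.001 ± 0.28 at 24 h, then to 14.4 ± 1.28 at 48 h and 14.5 ± 1.81 at 72 h. It was 2.85 ± 0.14 in the control knockdown, 4.71 ± 0.044 in the ARID2 knockdown and 5.45 ± 0.23 for the libraries labelled Aiolos knockdown. CDK4 stood to CDK6 at 2.89 ± 0.079 in untreated cells and 2.90 ± 0.085 in the control knockdown, and at 1.42 ± 0.088 in the ARID2 knockdown, the lowest group. CCNE1 stood to CCNE2 at 6.41 ± 0.48 in the control knockdown, 3.20 ± 0.27 in the ARID2 knockdown and 9.32 ± 2.81 for the libraries labelled Aiolos knockdown, where CCNE2 is close to 1 TPM and the ratio is least certain.

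**Figure D3:**
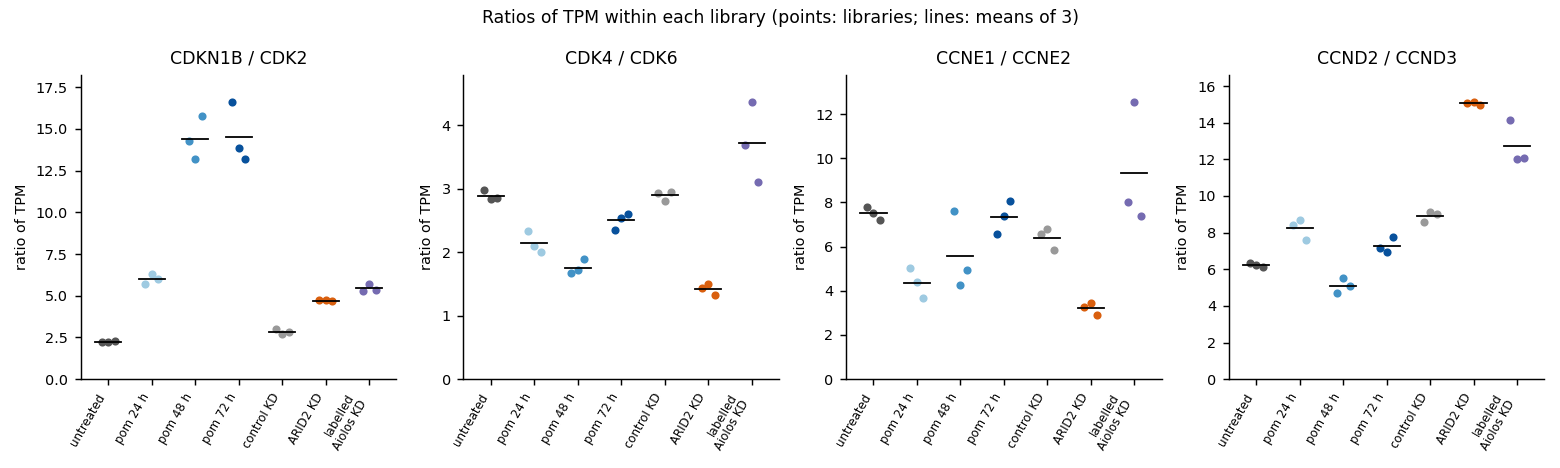
Ratio of the TPM of 2 genes within each library (linear axes from 0), by group, for 4 pairs; points are libraries and lines are means of 3. CDKN1B over CDK2 climbs from 2.25 in untreated cells to 14.5 at 72 h, and CDK4 over CDK6 is lowest in the ARID2 knockdown at 1.42.

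Other G1 regulators gave the setting. Of 11 genes listed, 9 were tested: 2 rose and 3 fell at 72 h, 2 rose and 2 fell in the ARID2 knockdown, and 3 rose and 3 fell in the libraries labelled Aiolos knockdown. Over all genes, 48.1% rose and 31.6% fell at 72 h, 33.1% and 29.2% in the ARID2 knockdown, and 37.2% and 30.7% for the libraries labelled Aiolos knockdown, so at 72 h the list had fewer calls than its size would give from these shares. The list's median change was -0.03, -0.07 and -0.13. CCND2 (cyclin D2) was the D-type cyclin with the highest level, at 198 ± 5.46 TPM in untreated cells, against 31.8 ± 0.91 for CCND3 and 7.14 ± 0.56 for CCND1. Its level fell to 111 ± 3.94 TPM at 48 h and was 177 ± 6.85 TPM at 72 h, and in the ARID2 knockdown it was 341 ± 7.96 TPM, against 212 ± 4.67 TPM in the control (0.68, adjusted p = 3.15e-12). CCND1 fell to 0.97 ± 0.23 TPM at 72 h (-2.05) and from 11.7 ± 0.35 to 1.68 ± 0.42 TPM in the libraries labelled Aiolos knockdown (-2.25), and did not pass in the ARID2 knockdown (-0.15, adjusted p = 0.23).

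CDKN1A (p21, an inhibitor of the same family as p27) had 65.5, 67.1 and 63.3 TPM in the control knockdown and 587, 595 and 573 TPM in the ARID2 knockdown. No library of any other group was above 96.9 TPM. The rise, each against its own control, was 3.14 in the ARID2 knockdown, 1.23 at 72 h of drug and 0.48 in the libraries labelled Aiolos knockdown. CDKN1A had 23.1 TPM in untreated cells and 55.3 TPM at 72 h, below the control knockdown. It had 91.4 TPM in the libraries labelled Aiolos knockdown. CDKN1C (p57, the other inhibitor of that family) rose from 5.80 ± 0.43 to 18.7 ± 2.06 TPM at 72 h (1.53) and did not pass in the ARID2 knockdown (-0.07). CCNC, cyclin C, fell by 0.87 in the ARID2 knockdown. The INK4 genes CDKN2A and CDKN2B, like CDKN2C, were near 0: they were listed at 0 in 17 and 13 of 21 libraries and nowhere above 0.103 TPM.

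**Figure D4:**
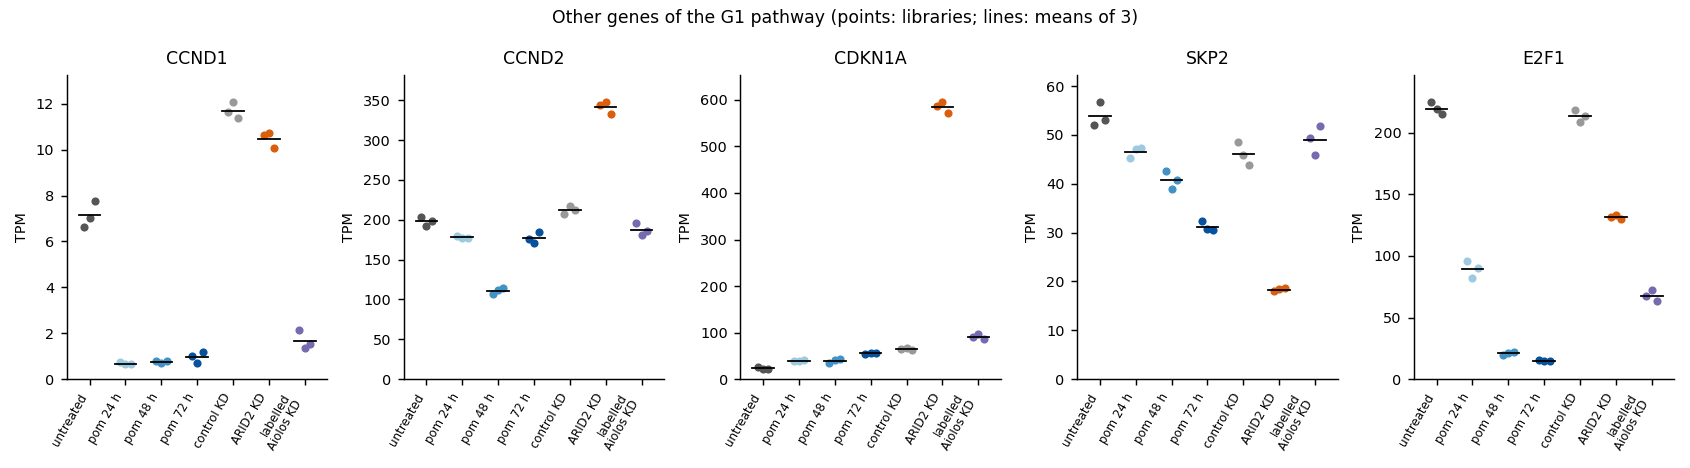
TPM of 5 other genes of the pathway (linear axes from 0) in the 21 libraries, by group; points are libraries and lines are means of 3. CDKN1A and CCND2 are highest in the ARID2 knockdown, at 585 and 341 TPM, where SKP2 is lowest at 18.4 TPM, and E2F1 is lowest at 72 h of drug at 14.9 TPM.

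Genes of the ligases that mark p27 for degradation (SCF with SKP2 and CKS1B, and another with RNF123) and cyclin E (SCF with FBXW7) form a list of 7. At 72 h 4 fell and 2 rose (1 with either other scaling; median -0.53), and in the ARID2 knockdown 3 fell and 3 rose (median -0.06). The shares over all genes were 31.6% lower and 48.1% higher at 72 h, and 29.2% and 33.1% in the ARID2 knockdown. SKP2, which recognises p27, fell from 54.0 ± 2.43 to 31.2 ± 0.94 TPM at 72 h (-0.77) and from 46.1 ± 2.35 to 18.4 ± 0.37 TPM in the ARID2 knockdown (-1.28, adjusted p = 2.42e-14). It did not pass in the libraries labelled Aiolos knockdown (0.08, adjusted p = 0.143). SKP2 acts on p27 protein, which was not measured, and its relation to the CDKN1B transcript was not tested. CKS1B, its cofactor, fell by 2.73 at 72 h and 1.27 in the ARID2 knockdown. CUL1, the scaffold, fell by 0.86 at 72 h, and RNF123 rose by 0.32 in the ARID2 knockdown.

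Of 13 pocket protein and E2F genes 9 fell and 3 rose at 72 h (median -0.86), and 5 fell and 3 rose in the ARID2 knockdown (median -0.09). Over all genes 31.6% fell and 48.1% rose at 72 h, and 29.2% fell and 33.1% rose in the ARID2 knockdown, where the list is near these shares. E2F1 fell from 219.6 ± 4.89 to 14.9 ± 0.44 TPM at 72 h (-3.80), E2F2 by 2.83 and TFDP1, a partner of E2F factors, by 1.68. In the ARID2 knockdown E2F2 fell by 0.95, E2F8 by 0.75 and E2F1 by 0.69. RB1, the substrate of CDK4 and CDK6, fell by 0.30 at 72 h (adjusted p = 0.0025) and did not pass at 24 h (-0.01), in the ARID2 knockdown (0.07) or with the label Aiolos knockdown (0.02, and below 0 with either other scaling).

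Downstream, 17 of 19 S phase entry genes fell at 24 h, 17 fell and 1 rose in the ARID2 knockdown, and all 19 fell in the libraries labelled Aiolos knockdown. The shares of all genes that fell were 31.0%, 29.2% and 30.7% in these comparisons. The median change of the list was -0.92 at 24 h, -2.67 at 48 h, -3.21 at 72 h and -0.61 in the ARID2 knockdown. TYMS (thymidylate synthase) fell by 3.99 and RRM2 (a subunit of ribonucleotide reductase) fell by 4.21 at 72 h, and MCM6, of the replicative helicase, by 2.84 at 72 h and 0.91 in the ARID2 knockdown. CCNA2 (cyclin A2) fell by 1.502 and CDC6, a loader of that helicase, by 1.26 in the ARID2 knockdown. Of 8 genes of G2 and mitotic CDK control 4 rose and 3 fell at 24 h, where 35.1% of all genes rose and 31.0% fell. With 8 genes, these counts are near those shares. All 8 fell at 48 h, at 72 h (median -3.01) and in the ARID2 knockdown (median -1.39). The shares of all genes that fell there were 34.8%, 31.6% and 29.2%. At 72 h PLK1, a mitotic kinase, fell by 3.73, PKMYT1, an inhibitory kinase of CDK1, by 3.83 and CCNB1 (cyclin B1) by 3.05. In the ARID2 knockdown CCNB1 fell by 1.86, PLK1 by 1.59 and CCNB2 (cyclin B2) by 1.52.

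Of 5 transcription factors known to act on these genes 3 rose and 1 fell at 72 h (median 0.39), and 2 rose and 2 fell in the ARID2 knockdown (median 0.05). With 5 genes, these counts are near the shares over all genes (48.1% higher and 31.6% lower at 72 h, 33.1% and 29.2% in the ARID2 knockdown). MYC, known to activate CDK4, fell from 479 ± 14.4 to 270 ± 7.41 TPM at 24 h (-0.83). It was at 286 ± 7.41 TPM at 48 h (-0.74) and at 305 ± 5.27 TPM at 72 h (-0.65). It fell by 0.88 in the ARID2 knockdown, and its part in the changes of CDK4 was not tested. The forkhead factors FOXO3 and FOXO4, known activators of CDKN1B, rose by 0.84 and 1.33 at 72 h, and by 0.23 and 1.103 in the ARID2 knockdown.

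Of genes with a mean of at least 5 TPM, those with group means most like each of these genes were sought over the 7 groups, by the root mean square difference of log2 levels after centring. The points share libraries, and the values are a description. FOXO3 was the closest of 9887 genes to CDKN1B, at 0.05, where the spread of CDKN1B itself was 0.39. ANXA6 and RCOR3 came next at 0.06. E2F2 was closest to CDC25A, at 0.09 against a spread of 0.99, followed by FEN1 (0.11) and TUBB (0.12). CDK2 was most like NCAPD3 (0.07), RANBP1 (0.09) and CSE1L (0.10), and CDK4 most like PGP (0.07), IFRD2 (0.09) and TYRO3 (0.09). CDK6 was most like AES (0.09), SLAIN1 and MRPS24, CCND3 most like MECR (0.08), ITGB1BP1 and VARS, and CDKN2D most like ARL6IP1 (0.08), RNF26 and KMT5A. DDN was nearest to CCNE1 (0.19, against a spread of 0.85), followed by IMPA2 and SMCO4. PASK was nearest to CCNE2 (0.22, against a spread of 0.77), followed by GCAT and MAGOHB. CCNE2 had a mean below 5 TPM, so it could not come up as close to another gene. None of the other tested genes was among the 3 closest to any of the 9, and the nearest by rank was CDK2, at place 64 for CCNE1.

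The order of the 7 groups also differed between the genes. CDK2, CDK4, CDC25A and CCNE1 were highest in untreated cells and next in the control knockdown. For CDK2 the libraries labelled Aiolos knockdown (47.2 ± 1.72 TPM) overlapped both 24 h of drug (47.7 ± 1.59 TPM) and the ARID2 knockdown (45.2 ± 0.18 TPM), while the last 2 did not overlap each other. CCNE2 in the ARID2 knockdown overlapped the control knockdown, which overlapped 24 h of drug, and its 3 lowest groups, 48 h, 72 h and the libraries labelled Aiolos knockdown, overlapped in turn. For CDK6 the ARID2 knockdown was highest, untreated cells and the control knockdown followed without overlap, and the other 4 groups overlapped their neighbours. CDKN1B, CDK4 and CDC25A separated all 7 groups, with neighbours 24 h and ARID2 knockdown of CDC25A at 37.8 ± 0.70 and 35.4 ± 1.15 TPM.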

How the data were processed

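Per the labels' protocols, the TruSeq RNA v2 kit was used for libraries and a NovaSeq for sequencing. The authors deposited 1 table of TPM values with 1 column per library. The submitters' processing notes name hg38. No aligner, quantifier, annotation or filter is given in the sources used here. TPM are shares, so a value can fall because others rose, and depth is unknown. Listed genes summed to 951444 to 968652 TPM per library.

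Groups were taken from the labels, which call the 3 libraries of a group biological replicates and name no cultures or days, so the spread behind each p-value is that between libraries, which may be technical. Values were analysed as log2(TPM + 1) after keeping genes at 1 TPM or more in at least 3 libraries. All 21 libraries entered 1 limma fit (limma 3.58.1, R 4.3.3) with 7 group means and empirical Bayes moderation with a trend (14 residual and 5.28 prior degrees of freedom). The 10 contrasts were tested two-sided with Benjamini-Hochberg adjustment over all genes within each contrast. The script was tested on simulated data. Means, SDs, ratios and likeness were computed in Python 3.11.15.

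The genes and lists were chosen with earlier results of these data known. Named are the 10 genes in every contrast, CCND1, CCND2, CDKN1A, CDKN2A, RB1, E2F1, SKP2, MYC, ARID2 and IKZF3, and up to 3 genes per list with the smallest p at 72 h and in the ARID2 knockdown. CDKN2B, PCNA, TSPAN31, INTS8, PMEL and the neighbours of CDKN2C were added after values were seen. For each tested gene the 3 most similar genes are named. The lists are other G1 regulators, turnover of p27 and cyclin E, pocket proteins and E2F, S phase entry genes, G2 and mitotic CDK control, upstream transcription factors, and markers of plasma, B, T and NK, myeloid, epithelial, stromal and erythroid cells. Erythroid markers summed to 3.74 to 28.9 TPM. Positions and exon overlaps come from GENCODE 29 on GRCh38, and promoters from RefSeq on GRCh38.p14, which held 13 windows for 8 of the 10 genes. Alternatives were another pseudocount, another or no filter, median-of-ratios scaling, quantile normalization, a replicate block, a fit of only the groups compared, and leaving out each library.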

Additional observations from a re-analysis of the deposited data

Results flagged for a closer look

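The effect of 72 h of pomalidomide (against untreated cells) differed from that of the ARID2 hairpin (against the control knockdown) for 8 of the 9 tested genes, 7 lower and 1 higher, by limma's test of the difference of effects. Over all genes 29.1% were lower and 40.4% higher in that test, so a call by itself is common. The difference, drug effect minus hairpin effect on the log2 scale, was -2.22 for CDC25A, -1.96 for CCNE2, -1.48 for CCNE1, -1.32 for CDK6, -1.14 for CDK2, -0.52 for CDK4, -0.30 for CCND3 and 0.78 for CDKN1B. CDK6 was the gene of these whose 2 effects both passed in opposite directions, at -0.74 with the drug and 0.58 with the hairpin. The median of all genes for this difference was 0.11, and -0.0094 with median-of-ratios scaling. Relative to it, CDK4 stood at -0.62 and CDKN1B at 0.67.

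The drug effect differed from that in the libraries labelled Aiolos knockdown for 7 of the 9 genes, 5 lower and 2 higher, where 28.0% of all genes were lower and 35.0% higher, so the count of calls is near that over all genes. The difference was -2.08 for CDC25A, -1.20 for CDK2, -0.83 for CDKN2D, -0.82 for CCNE1, -0.67 for CDK4, 0.29 for CCND3 and 0.51 for CDKN1B. CDKN2D fell with the drug (-0.46) and rose in these libraries (0.37), and CCND3 fell in both, more in these libraries (-0.66 against -0.37). Drug and hairpin groups have separate controls, and the control knockdown itself differed from untreated cells in 6 of the 9 genes. No group has 4 or more libraries, so single libraries were not tested as outliers.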

How the results depend on the processing

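Of the 9 genes tested, 9 passed at 24, 48 and 72 h and in the libraries labelled Aiolos knockdown, 7 in the ARID2 knockdown and 8 in the difference between drug and ARID2 effects, under every alternative run. Between 24 and 48 h it was 7 to 8 with 1 library left out, in the control knockdown 5 to 7 over all alternatives, and in the difference from the libraries labelled Aiolos knockdown 7 to 8. Between 48 and 72 h 6 passed, but 3 with median-of-ratios scaling, 3 when only the groups compared were fitted, and 2 to 5 when 1 library was left out (2 without the second library of 48 h). A pseudocount of 0.1 TPM and a filter of 5 TPM changed none of the 90 calls. Replicate numbers did not pair the libraries (median correlation of deviations -0.0145 over 63 pairs, with 2 of 21 libraries closest to their own number). With a replicate block the call of CDK6 between 48 and 72 h was lost (-0.19, adjusted p = 0.0537) and no other call of these genes changed.

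Signs turned for values that did not pass or were close to 0. With median-of-ratios scaling CCND3 between 24 and 48 h was at -0.0143, CDK2 and CDKN1B between 48 and 72 h at -0.0105 and -0.0026, and RB1 in the libraries labelled Aiolos knockdown at -0.0389 (-0.0464 with quantile normalization, which put CDKN1B in the control knockdown at 0.0094). With 1 library left out, the ranges were -0.0328 to 0.0606 for CCND3 between 24 and 48 h, -0.2355 to 0.0362 for CDKN2D between 48 and 72 h, -0.2068 to 0.0649 for its difference between effects of drug and ARID2 hairpin, -0.0734 to 0.0719 for RB1 at 24 h and -0.0908 to 0.1132 in the libraries labelled Aiolos knockdown. The fits could not weigh sequencing depth, which is unknown.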

Other observations

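The near-zero level of CDKN2C stood beside neighbours of unequal level. The neighbours on chromosome 1 were chosen after values were seen. Before it by position, BEND5, ELAVL4 and DMRTA2 reached at most 1.602, 0.077 and 0.129 TPM over the 21 libraries. FAF1, the closest on that side, had 0.292 to 1.176 TPM. After it came RNF11 at 58.6 to 100.7 TPM and TTC39A at no more than 0.236 TPM. EPS15 at 37.2 to 74.2 TPM and OSBPL9 at 53.6 to 78.5 TPM followed. The data hold no measure of DNA copy number.

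In the ARID2 knockdown PCNA, the replication clamp, was the 1 gene of the 19 S phase entry genes that rose (0.30, adjusted p = 1.89e-06), in libraries where CDKN1A rose by 3.14. Its mean was 590 TPM in the control knockdown and 728 TPM in the ARID2 knockdown, and untreated cells also had 728 TPM. At 72 h of drug PCNA fell by 2.59.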
